A study of Mus musculus with 4 samples.

Results

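Spp1, the gene for the secreted phosphoprotein osteopontin, was followed through single-cell RNA sequencing libraries of mouse hindlimb tissue. It is the 1 row with that symbol among the 27998 genes of the count matrices, and it was selected on its UMI counts in these libraries and cell types. Its levels are therefore a description, and no test was made of them. The 4 libraries held tissue around the Achilles tendon at day 7 after a dorsal burn over 30% of the body surface combined with transection of the left tendon. They were the injured left limb of Ddr2 slie/slie mice, the injured left limb of littermate controls, the uninjured right limb of the slie/slie mice and the uninjured right limb of the controls. The slie allele is a spontaneous deletion that removes part of Ddr2. All mice received the burn, so the uninjured limbs came from burned animals. Limbs of 2 mice were pooled in each library, which left 1 library per group and no replicates. The sources used here give no strain, sex or age. Intervals below are 95% intervals for counting error alone, and differences between mice were not measured.

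Osteopontin belongs to a small family of acidic, integrin-binding glycoproteins of bone and tooth, whose genes lie side by side in the genome. It binds the hyaluronan receptor CD44 and, through an RGD motif, integrins that contain the alpha v chain, and it is cut by thrombin and by matrix metalloproteinases. Macrophages of healing wounds, osteoclasts, osteoblasts and hypertrophic chondrocytes are known sources, and the phosphorylated protein inhibits the growth of mineral crystals. DDR2, the product of the gene deleted in slie mice, is a receptor tyrosine kinase for fibrillar collagen.

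Spp1 (ENSMUSG00000029304) lies on the plus strand at chr5:104435118-104441050 of GRCm38 (mm10) in the GENCODE annotation, which lists 7 transcripts. The first transcript listed has 7 exons, and its last exon of 822 bases lies at chr5:104440229-104441050. Dspp, Dmp1, Ibsp and Mepe, the other genes of the family, lie upstream on the same strand, with the end of Mepe 96507 bases before the start of Spp1. The promoter is shown because the expressing cells described here were of several unrelated kinds. The 250 bases upstream of the RefSeq start, at chr5:104434861-104435110 on the plus strand of GRCm38.p6, are given with a RUNX motif and an inverted CCAAT box in capitals.
Spp1 promoter: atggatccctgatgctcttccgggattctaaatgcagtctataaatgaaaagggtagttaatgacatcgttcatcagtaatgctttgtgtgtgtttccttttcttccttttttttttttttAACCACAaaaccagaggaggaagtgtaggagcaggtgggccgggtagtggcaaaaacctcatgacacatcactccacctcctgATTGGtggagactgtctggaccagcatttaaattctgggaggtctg
The motifs AACCACA (RUNX), CCAAT and TGANTCA (AP-1) were searched on both strands. AACCACA began 129 bases before the start and was present in 4.40% of 32851 RefSeq promoter windows of the same length. CCAAT was found once on the minus strand, beginning 46 bases before the start, and was present in 33.8% of the windows. TGANTCA, present in 6.75% of the windows, was not among these letters.

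The libraries differed in size, and all levels below are given as CPM, counts of Spp1 scaled to a fixed total of unique molecular identifiers (UMIs) for that reason. The slie/slie injured, control injured, slie/slie uninjured and control uninjured libraries held 375, 842, 289 and 1075 deposited barcodes with 1493147, 4515174, 1540053 and 579790 UMIs. After a filter that asked for 200 genes or more and no more than 20% mitochondrial UMIs, the cells numbered 246, 751, 184 and 60, with medians of 1218, 1641, 4841 and 1337 UMIs per cell. The deleted gene, Ddr2, had 0 UMIs in the slie/slie injured library and 116 in the control injured library, and it had 2 UMIs in the slie/slie uninjured library and 5 in the control uninjured library. The control injured and control uninjured libraries shared 1 barcode, which was not among the filtered cells of both, and no other pair shared any.

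Spp1 was abundant in both injured limbs and lower in both uninjured limbs. It had 1177 UMIs in the slie/slie injured cells, 6111 in the control injured cells, 339 in the slie/slie uninjured cells and 31 in the control uninjured cells. These counts came to 1164 CPM (1099 to 1233), 1515 CPM (1478 to 1554), 309 CPM (277 to 344) and 128 CPM (86.7 to 181) in the same order. The level in the injured limb was 3.76-fold that of the uninjured limb in slie/slie mice (interval 3.33 to 4.26) and 11.5-fold in controls (8.14 to 16.8). A difference of 1.5-fold or more between injured and uninjured limbs was found for 42.9% of the genes measured in slie/slie mice and for 57.4% of those measured in controls. Whether the injury ratio differed between genotypes was not tested.

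Between genotypes, the Spp1 level of the whole injured library was 1.30-fold lower in slie/slie than in control tissue, a ratio of 0.769 (0.722 to 0.819). This was smaller than the 1.5-fold difference that 26.8% of all measured genes reached in the same pair of libraries. In uninjured limbs the ratio was 2.35 (1.64 to 3.50), and 41.0% of genes differed by 1.5-fold or more there. Both library ratios rested on few cells. The 3 cells with the most Spp1 held 49.4% of its UMIs in slie/slie injured tissue and 52.0% in control injured tissue, and they held 83.2% in slie/slie uninjured and 90.3% in control uninjured tissue. When every cell was given the same weight, the log2 ratio in injured limbs was 0.92 rather than -0.38, and that in uninjured limbs was -0.42 rather than 1.23, so neither library ratio kept its direction. In the uninjured slie/slie library, 213 of the 339 UMIs lay in 1 cell that was called a doublet, and the log2 ratio was -0.12 without that cell. It was -0.75 without all doublet calls, which also took 14 of the 60 control uninjured cells.

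**Figure D1:**
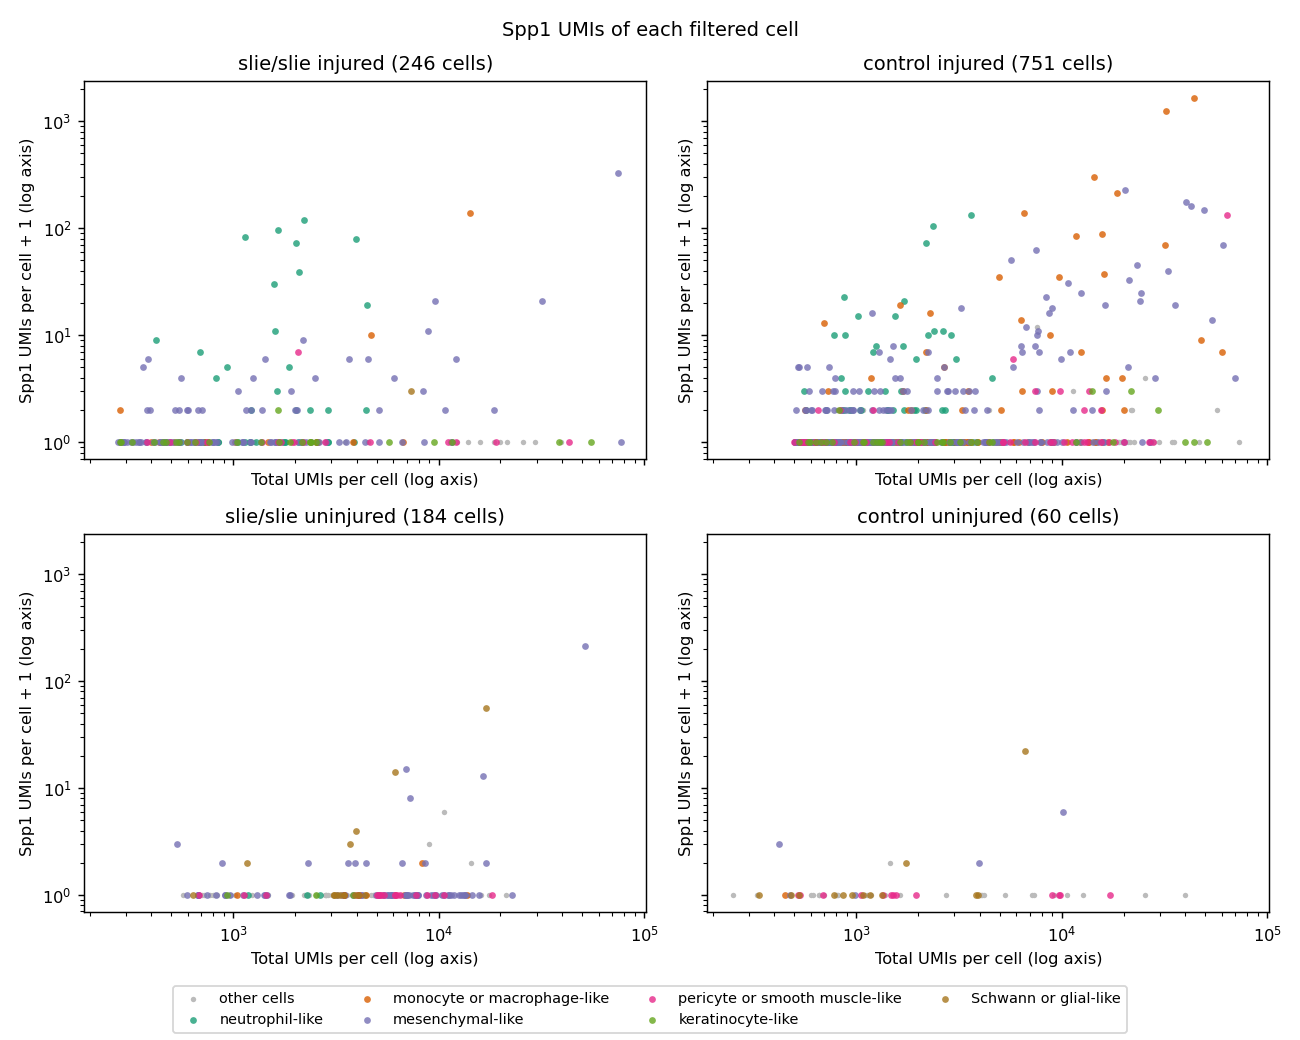
Spp1 UMIs of each filtered cell plus 1 (vertical log axis) against the total UMIs of the cell (horizontal log axis) in the 4 libraries, coloured by marker-defined class. Most cells lie on the baseline of 0 Spp1 UMIs. The highest values are 324 in a mesenchymal-like cell of the slie/slie injured library and 1641 in a macrophage-like cell of the control injured library, whereas neutrophil-like cells with many Spp1 UMIs are shallow in both.

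Cells were grouped into 17 clusters without using Spp1 and named from marker genes. The classes were carried by their usual markers, such as S100a8, S100a9 and Cxcr2 in neutrophil-like cells, C1qa, Csf1r and Lyz2 in monocyte or macrophage-like cells, Col1a1, Col3a1 and Dcn in mesenchymal-like cells (fibroblasts and their relatives), Rgs5, Myh11 and Notch3 in pericyte or smooth muscle-like cells and Krt5 and Krt14 in keratinocyte-like cells. The order of the classes by Spp1 level was not the same in the 2 injured libraries. In slie/slie injured tissue it ran from neutrophil-like cells at 7380 CPM (6789 to 8009) through macrophage-like cells at 3720 CPM (3146 to 4367) and mesenchymal-like cells at 1096 CPM (997 to 1203) to pericyte-like cells at 54.9 CPM (20.2 to 119) and keratinocyte-like cells at 6.90 CPM (0.175 to 38.4). In control injured tissue macrophage-like cells came first at 5208 CPM (5048 to 5372), before neutrophil-like cells at 2194 CPM (2005 to 2395), mesenchymal-like cells at 1007 CPM (956 to 1061) and pericyte-like cells at 381 CPM (322 to 448). Below them stood erythroid-like cells at 45.2 CPM, dendritic-like cells at 37.6 CPM, keratinocyte-like cells at 21.1 CPM and endothelial-like cells at 9.23 CPM, each with an interval that overlapped that of its neighbour. The intervals of pericyte-like and keratinocyte-like cells also overlapped in slie/slie tissue. The log2 ratio of macrophage-like over neutrophil-like cells was -0.98 in slie/slie and 1.25 in control tissue. It kept its sign in 15 of 15 alternatives in slie/slie tissue and in 16 of 16 in control tissue, although 139 of the 149 Spp1 UMIs of slie/slie macrophage-like cells were in 1 cell. The alternative without the 3 highest cells left no Spp1 UMIs in slie/slie macrophage-like cells, so its sign was set in advance. With cells classed by their own marker UMIs, slie/slie macrophage-like cells stood at 662 CPM, below mesenchymal-like cells at 960 CPM.

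**Figure D2:**
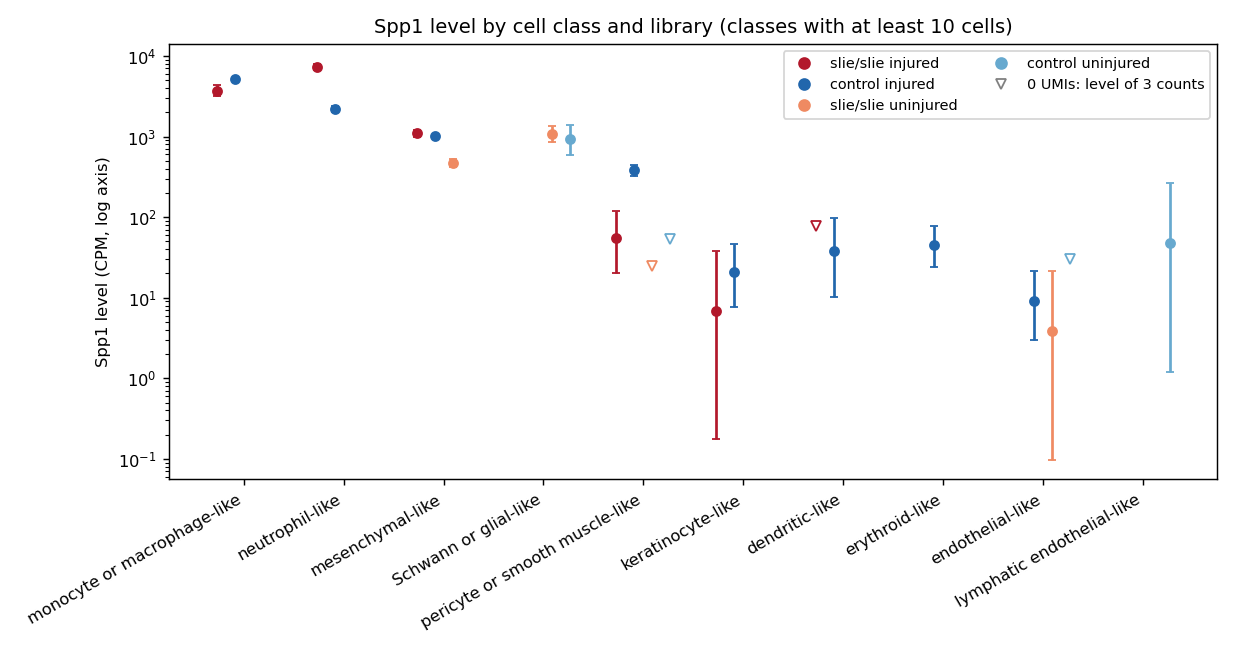
Spp1 level in CPM (log axis) by cell class, for the slie/slie injured, control injured, slie/slie uninjured and control uninjured libraries, shown where a class had at least 10 cells. Points are summed counts with 95% counting intervals, and open triangles mark the level of 3 counts where no UMI was found. Neutrophil-like cells stand at 7380 CPM in slie/slie and 2194 CPM in control injured tissue, while endothelial-like and keratinocyte-like cells lie below 50 CPM in every library shown.

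The share of the library's Spp1 that each class held differed accordingly. Neutrophil-like cells held 48.8% of the Spp1 UMIs in slie/slie injured tissue and 8.15% in control injured tissue, while they were 17.9% and 20.2% of the cells. Macrophage-like cells held 12.7% in slie/slie and 65.4% in control injured tissue, and they made up 5.69% and 14.9% of the cells. Mesenchymal-like cells held 37.8% in slie/slie and 23.6% in control injured tissue. In uninjured limbs Schwann-like cells held 21.8% in slie/slie and 71.0% in control tissue, and mesenchymal-like cells 75.5% and 25.8%.

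**Figure D3:**
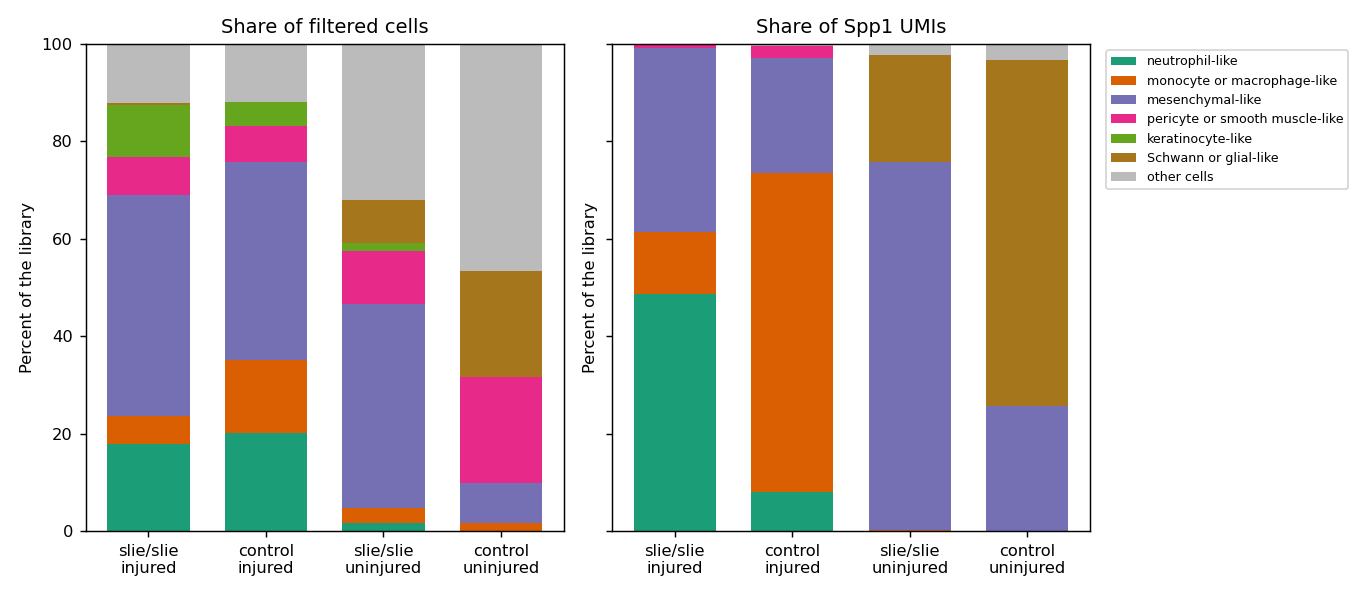
Share of the filtered cells (left) and of the Spp1 UMIs (right) by cell class, in percent of each library. Neutrophil-like cells take up a similar share of the cells in slie/slie and control injured tissue (17.9% and 20.2%) but 48.8% and 8.15% of the Spp1 UMIs.

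Neutrophils are short-lived granulocytes that enter wounds early. In neutrophil-like cells Spp1 had 574 UMIs over 44 cells of slie/slie injured tissue and 498 UMIs over 152 cells of control injured tissue. The level was 3.36-fold higher in slie/slie cells (2.98 to 3.80), in a comparison where 41.0% of 1857 measured genes differed by 1.5-fold or more, with 14.9% of the measured genes higher and 26.1% lower by that much. The log2 ratio of 1.75 was positive in all 15 alternatives that gave a value, between 1.44 and 2.14. It was 2.14 without the 3 highest cells of each library, so it did not rest on them. No ratio could be had without cells under 0.5% mitochondrial UMIs, which were most of the class. The median mitochondrial share of neutrophil-like cells was 0.147% in slie/slie and 0.135% in control tissue. At least 1 Spp1 UMI was seen in 20 of 44 slie/slie cells, or 45.5% (30.4 to 61.2), and in 42 of 152 control cells, or 27.6% (20.7 to 35.5). The slie/slie cells were deeper, with a median of 1642 UMIs against 1213 UMIs in control cells. With cells thinned to 500 UMIs the shares were 27.9% (15.3 to 43.7) in slie/slie and 16.4% (10.9 to 23.3) in control cells, and these intervals overlapped. Thinning left out 1 slie/slie cell with fewer UMIs. For comparison, 1 of 26 slie/slie and 4 of 38 control keratinocyte-like cells, at medians of 1508 and 1990 UMIs, had an Spp1 UMI, and so had 3 of 26 control endothelial-like cells at a median of 17632 UMIs.

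Spp1 counts per expressing neutrophil-like cell were also higher in slie/slie tissue. At least 10 Spp1 UMIs were found in 9 of 44 slie/slie cells and in 9 of 152 control cells, and the median of the cells with any was 7 UMIs in slie/slie and 2 UMIs in control tissue. Spp1 took up as much as 7.19% of all UMIs of a slie/slie cell and 4.42% of those of a control cell. The summed level of the neutrophil markers was 135025 CPM in slie/slie and 134193 CPM in control cells. Of 15 macrophage markers, 5 were detected in the slie/slie neutrophil-like cells with 1282 UMIs, 1240 of them from Cd14, while C1qa, C1qb, C1qc, Adgre1 and Mrc1 were at 0. In control cells 12 were detected with 1191 UMIs, 984 of them from Cd14. The whole list came to 16483 CPM in slie/slie and 5247 CPM in control cells, so it was higher in slie/slie cells. Without Cd14, a lipopolysaccharide co-receptor that activated neutrophils also carry, the list came to 540 CPM in slie/slie and 912 CPM in control cells. Whether RNA from macrophages was present in these cells was not tested.

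Neutrophil-like cells formed a pair of clusters, and Spp1 was concentrated in 1 of them in both genotypes. Cluster 10 was led by Ccl4, Ccl3, Cxcl2 and Tnf, which encode inflammatory chemokines and a cytokine, and cluster 1 was led by Cxcr2, Retnlg and Csf3r, genes of mature circulating neutrophils. In cluster 10 Spp1 had 498 UMIs over 16 slie/slie cells and 317 UMIs over 38 control cells, or 15378 CPM and 4024 CPM. The ratio was 3.82 (3.31 to 4.41), with 46.4% of 645 measured genes differing by 1.5-fold or more. It is given with caution, with fewer than 20 slie/slie cells. The 3 highest cells held 296 of the 498 slie/slie and 257 of the 317 control UMIs, and the log2 ratio was 2.74 without them. In cluster 1 Spp1 had 76 UMIs over 28 slie/slie cells and 181 UMIs over 114 control cells, or 1674 CPM and 1221 CPM, a ratio of 1.38 (1.04 to 1.81), where 45.3% of genes differed by 1.5-fold or more. The cluster 10 ratio was positive in 14 of 14 alternatives, whereas the cluster 1 ratio was positive in 9 of 14. Cluster 10 cells were 16 of the 44 slie/slie and 38 of the 152 control neutrophil-like cells.

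Monocyte or macrophage-like cells had the highest single values. The first 2 control injured cells held 1641 and 1240 Spp1 UMIs, which were 3.74% and 3.84% of all their UMIs. Both also held Lyz2 (lysozyme, 1514 and 476 UMIs) and Fabp5 (a fatty acid-binding protein, 317 and 437 UMIs). The class had 149 Spp1 UMIs in 14 slie/slie injured cells and 3995 in 112 control injured cells. With fewer than 20 slie/slie cells, the ratio of 0.719 (0.607 to 0.846) is given with caution, and 51.7% of genes differed by 1.5-fold or more in this comparison. Spp1 was seen in 3 of 14 slie/slie cells and 37 of 112 control cells, and the slie/slie cells were shallower, with a median of 1256 UMIs against 3293 UMIs in control cells. The ratio was below 1 in 16 of 16 alternatives, but it moved to a log2 value of -2.94 without the highest cell of each library. The 3 highest slie/slie cells held all 149 UMIs. The alternative without them therefore left no slie/slie Spp1, and its sign was set in advance.

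The macrophage-like cells richest in osteoclast genes were not those with the most Spp1. Osteoclasts, bone-resorbing cells known to make osteopontin, carry Acp5 (tartrate-resistant acid phosphatase, which removes phosphate from osteopontin) and Ctsk (cathepsin K). The 3 control injured cells of the macrophage-like class with the most Acp5 held 858, 362 and 169 Acp5 UMIs and 1150, 460 and 251 Ctsk UMIs. In the same order they held 0, 0 and 11 Lyz2 UMIs and 0, 0 and 3 C1qa UMIs. Their Spp1 came to 6, 8 and 69 UMIs in the same order, far below the 1641 and 1240 UMIs of the 2 highest cells, which held 10 and 6 Acp5 UMIs. Within the larger macrophage-like cluster of the control injured library, led by Chil3, Cybb and Ccr2, cells with Spp1 had a median depth of 8805 UMIs and cells without it 2189 UMIs.

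Mesenchymal-like cells carried Spp1 in every library, and in both injured libraries their level lay below those of macrophage-like and neutrophil-like cells. In slie/slie tissue the place below macrophage-like cells rested on the 1 macrophage-like cell with 139 of 149 UMIs. With cells classed by their own marker UMIs the order there was reversed, at 960 CPM in mesenchymal-like and 662 CPM in macrophage-like cells. At least 1 UMI was seen in 34 of 112 slie/slie injured cells (30.4%) and in 97 of 305 control injured cells (31.8%), and with thinning the shares were 17.7% and 17.0%. In slie/slie tissue 324 of the 445 UMIs of the class were in 1 cell, and in control tissue the highest cell held 229 of 1443. The class was compared by cluster, since cluster 2 had Col11a1, a cartilage collagen gene, among its leading genes. In cluster 2, led by matrix and Wnt inhibitor genes such as Col14a1, Sfrp1 and Sfrp2, Spp1 had 21 UMIs over 21 slie/slie cells and 927 UMIs over 113 control cells, or 118 CPM and 1063 CPM. It was 8.63-fold lower in slie/slie cells (5.67 to 13.8), with 33.5% of genes differing by 1.5-fold or more, and 16 of the 113 control cells but 0 of the 21 slie/slie cells had at least 10 UMIs. The share of cells with a UMI was 38.1% in slie/slie and 31.0% in control cells of the cluster.

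The direction in the mesenchymal clusters depended on the processing. In cluster 0, led by H19, Mdk and Mest, Spp1 had 28 UMIs over 54 slie/slie cells and 121 UMIs over 100 control cells, a ratio of 0.606 (0.389 to 0.914), where 34.6% of genes differed by 1.5-fold or more. In cluster 6, led by the proliferation genes Cdk1, Top2a and Birc5, Spp1 had 373 UMIs over 24 slie/slie cells and 391 UMIs over 63 control cells. That ratio was 2.60 (2.25 to 3.00), in a comparison where 38.0% of genes differed by 1.5-fold or more, but its log2 value was -0.35 without the highest cell of each library. The ratio of cluster 0 kept its sign in 9 of 15 alternatives, that of cluster 2 in 12 of 15 and that of cluster 6 in 6 of 14.

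Pericyte-like and keratinocyte-like cells showed little Spp1. Pericyte or smooth muscle-like cells had 6 UMIs, all in 1 cell, over 19 slie/slie injured cells and 147 UMIs over 55 control injured cells, of which 131 were in a single cell of 63835 UMIs. The level was 5.98-fold lower in slie/slie cells (2.83 to 15.2), in a comparison where 33.4% of genes differed by 1.5-fold or more, and the direction was lost in 4 of 16 alternatives. With fewer than 20 slie/slie cells this value is also given with caution. Uninjured pericyte-like cells had 0 Spp1 UMIs among 20 slie/slie cells and among 13 control cells, which allows up to 24.9 CPM and 53.2 CPM at a count of 3. The interval of the injured over uninjured ratio held 1 in slie/slie pericytes, beginning at 0.992, where 49.2% of genes differed by 1.5-fold or more. In control pericytes it began at 3.82, where 56.7% of genes differed by 1.5-fold or more, and this value includes the 1 cell with 131 UMIs. Keratinocyte-like cells had 1 UMI over 26 slie/slie injured cells and 6 UMIs over 38 control injured cells, a ratio of 0.560 whose interval of 0.0567 to 2.94 held 1, and 43.2% of genes differed by 1.5-fold or more there.

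Schwann-like cells, the glia of peripheral nerve, were the other source in uninjured limbs. They had 74 Spp1 UMIs over 16 slie/slie cells, 55 of them in 1 cell. In control uninjured tissue they had 22 UMIs over 13 cells, 21 of them in 1 cell. The levels were 1077 CPM (846 to 1353) in slie/slie and 932 CPM (584 to 1411) in control cells, with intervals that overlapped. Mesenchymal-like cells had 256 UMIs over 77 slie/slie uninjured cells, 213 of them in the doublet call described above, and 8 UMIs over 5 control uninjured cells. Myeloid cells were too few to compare there, with 3 neutrophil-like and 6 macrophage-like cells in slie/slie and 0 and 1 in control tissue, and together they held 1 Spp1 UMI. Endothelial-like cells of the same limbs had 1 UMI over 49 slie/slie cells and 0 UMIs over 17 control cells, for 3.86 CPM in slie/slie cells, while 0 allows up to 29.9 CPM at a count of 3 in control cells.

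**Figure D4:**
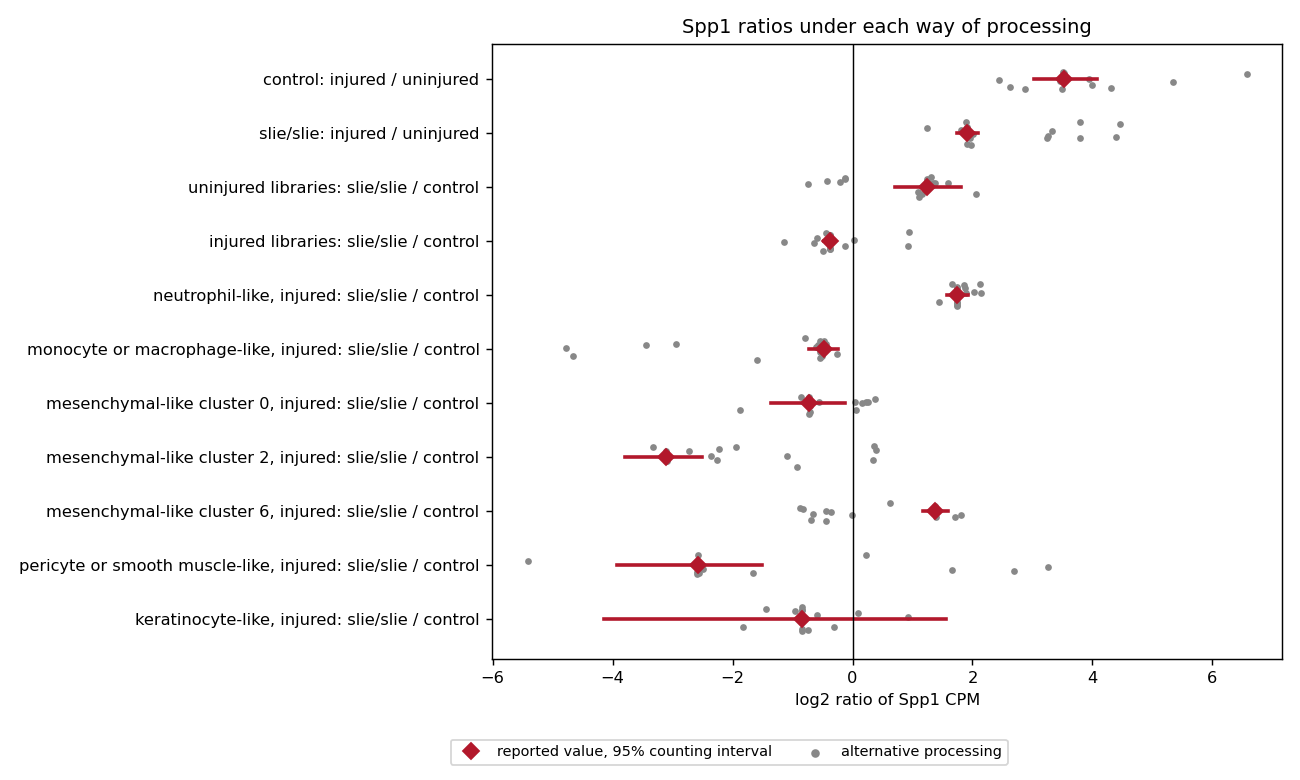
Log2 ratios of Spp1 CPM for each comparison as reported (diamonds, with 95% counting intervals) and under each alternative way of processing (grey points). The neutrophil-like ratio of slie/slie over control stays between 1.44 and 2.14, while the library ratios between genotypes and those of clusters 0, 2 and 6 have points on both sides of 0.

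Genes of the osteopontin pathway were described from lists chosen with earlier results of these data known. Of 10 receptor chains 9 were measured with at least 20 UMIs in the injured libraries, and 0 were higher and 2 lower by 1.5-fold in slie/slie tissue, where 13.8% of all genes were higher and 13.0% lower by that much. These were Itga4 (2.56-fold lower, at 13.9 CPM in slie/slie and 37.7 CPM in control tissue) and Itgb3 (1.58-fold lower, with an interval of 0.891 to 3.00 that held 1). The median log2 ratio was -0.11, beside 0.04 over all 11313 measured genes. Cd44 was at 110 CPM in slie/slie and 136 CPM in control injured tissue. By class, Cd44 was highest in neutrophil-like cells, at 669 CPM in slie/slie and 612 CPM in control cells, a ratio of 1.10 (0.790 to 1.53), an interval that lay below the one for Spp1 in the same cells. Itgb1, the integrin beta 1 chain, was highest in control injured pericyte-like cells at 2191 CPM, and Itgav in the same cells at 95.8 CPM. In neutrophil-like cells 3 receptor chains were measured, and 2 were lower by 1.5-fold in slie/slie cells, beside 26.1% of all genes. Itga4 had 2 UMIs in slie/slie and 33 in control cells (3.88-fold lower, 1.22 to 19.8). Itgb1 had 3 and 26 UMIs (2.31-fold lower, 0.806 to 9.10).

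Among 11 genes for enzymes that cut, cross-link or modify osteopontin, 7 were measured and 5 were lower by 1.5-fold or more in slie/slie injured tissue, beside 13.0% of all measured genes. Mmp9, a gelatinase of neutrophils and osteoclasts, had 23 UMIs in slie/slie and 1031 in control tissue and was 10.8-fold lower (7.20 to 16.9). Acp5 was 4.79-fold lower (3.84 to 6.05), Mmp3 (stromelysin) 3.67-fold lower (2.83 to 4.84) and Plau (urokinase) 2.01-fold lower (1.10 to 4.02). Mmp12, the macrophage elastase, had 0 UMIs in slie/slie and 144 in control tissue. A few cells carried most of these UMIs. The 3 highest cells for each gene held 56 of 82 Acp5 UMIs in slie/slie and 1389 of 1585 in control tissue, and for Mmp9 they held 10 of 23 and 891 of 1031. Without those cells in either library Acp5 was 1.75-fold lower, at 27.8 CPM in slie/slie and 50.3 CPM in control tissue, and Mmp9 was 2.58-fold lower, at 12.9 CPM in slie/slie and 35.8 CPM in control tissue. The 3 highest cells held 57 of 60 Mmp3 UMIs in slie/slie and 712 of 892 in control tissue, and 133 of the 144 control Mmp12 UMIs. Without them Mmp3 was 11.4-fold lower, and Mmp12 had 0 UMIs in slie/slie and 11 in control tissue. Leaving out 3 cells takes a larger share of the 246 slie/slie cells than of the 751 control cells. It can by itself lower slie/slie over control ratios, so the larger Mmp3 value is not a firmer one. Macrophage-like cells held 1448 of the 1585 Acp5, 895 of the 1031 Mmp9 and 142 of the 144 Mmp12 UMIs of the control injured library, and that class had 14 slie/slie and 112 control cells. In that class 2 control cells held 858 and 362 Acp5, 327 and 549 Mmp9 and 1150 and 460 Ctsk UMIs, with 0 of Lyz2 and C1qa. The enzyme values of the class thus include cells with osteoclast genes. Classed by their own marker UMIs, 5 control injured cells were osteoclast-like. Within these macrophage-like cells 4 enzyme genes were measured, and 3 were lower by 1.5-fold, where 51.7% of genes differed by that much. Their median log2 ratio was -3.78, beside 0.31 over all genes. Mesenchymal-like cells held all 60 Mmp3 UMIs of slie/slie and 885 of the 892 of control injured tissue. Of the 82 slie/slie Acp5 UMIs, 46 were in keratinocyte-like cells. What part the difference in macrophage-like cell numbers had in the enzyme ratios was not tested. In neutrophil-like cells Mmp9 had 22 UMIs in slie/slie and 99 in control tissue, a ratio of 0.671 (0.407 to 1.06). Tgm2, the other enzyme gene measured there, had 16 UMIs in slie/slie and 23 in control cells. Its ratio was 2.07 (1.04 to 4.01), and 1.26 (0.479 to 2.98) without the 3 highest cells of each library.

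Genes that mark lipid-handling macrophages, a set to which Spp1 is often added, were all measured in the injured libraries, and 1 of 16 was higher and 7 lower in slie/slie tissue by 1.5-fold, beside 13.8% and 13.0% of all measured genes. The 7 included Arg1 (6.61-fold, 4.08 to 11.4), Gpnmb (3.62-fold, 1.69 to 9.22) and Trem2 (2.55-fold, 1.57 to 4.40), and the median log2 ratio of the list was -0.57. Within the 14 slie/slie and 112 control macrophage-like cells these named genes were not lower beyond counting error. The ratios were 0.954 (0.515 to 1.63) for Arg1, 1.47 (0.525 to 3.35) for Gpnmb and 1.65 (0.904 to 2.80) for Trem2. Of the whole list, however, 3 of 16 were higher and 6 lower there, where 51.7% of genes differed by 1.5-fold or more. The median log2 ratio in these cells was -0.31 for the list and 0.31 over all genes. Arg1 also lay in keratinocyte-like cells of injured tissue, with 1 UMI in slie/slie and 158 UMIs in control cells. Il1rn, the interleukin 1 receptor antagonist, was the 1 that was higher, 2.12-fold (1.85 to 2.43), and 1.39-fold without the 3 highest cells of each library. Within neutrophil-like cells 10 of the list were measured, 2 were higher and 2 lower, beside 14.9% and 26.1% of all genes, and the median log2 ratio was 0.20. Il1rn was 2.56-fold (2.18 to 3.02) and Plin2, a lipid droplet protein, 2.28-fold higher (1.51 to 3.40) in slie/slie cells. Fabp5 was 2.63-fold (1.12 to 7.53) and Apoe, apolipoprotein E, 1.60-fold lower (0.767 to 3.74). Thbs1, thrombospondin 1 and, like osteopontin, a matricellular protein, was at 1221 CPM in slie/slie and 216 CPM in control neutrophil-like cells, a log2 ratio of 2.49. Sparc, the other matricellular gene measured in these cells, had 1 UMI in slie/slie and 36 in control cells, a ratio of 0.158 (0.0184 to 0.612). Over whole injured libraries Thbs1 was 1.33-fold lower (1.17 to 1.52). The Spp1 ratio of these libraries was also below 1, but it did not keep its direction when cells were weighted equally. Of the 14 matricellular genes in the matrices, Thbs4, Smoc2 and Vtn were higher by 1.5-fold or more and Cyr61 was lower, beside the same 13.8% and 13.0% of all genes. In slie/slie tissue the 3 highest cells for each gene held 265 of 279 Thbs4, 85 of 126 Smoc2 and 15 of 20 Vtn UMIs. In control tissue they held 133 of 271, 56 of 294 and 15 of 23. Without those cells in either library the ratio was 0.471 (0.257 to 0.804) for Thbs4 and 0.806 (0.566 to 1.12) for Smoc2. That of Vtn was 2.77 (0.810 to 8.70), on 5 and 8 UMIs, and Cyr61 was 2.37-fold lower, beside 1.53-fold with all cells. Leaving out 3 cells takes a larger share of the 246 slie/slie cells than of the 751 control cells. It can by itself lower these ratios and that of Il1rn, so the values without those cells do not settle a direction.

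The other genes of the family were nearly absent. Mepe and Dspp had 0 UMIs in all 4 libraries, over all deposited barcodes. Dmp1, which marks osteocytes, had 2 UMIs in 1 slie/slie injured cell and 18 UMIs in 3 control injured cells, all of them in the pericyte or smooth muscle-like class, and 0 UMIs in both uninjured libraries. Ibsp, bone sialoprotein, had 13 UMIs in 9 barcodes of the control uninjured library, all of them outside the filter, and at most 1 UMI in each of the others. Among 12 mineralisation genes 5 were measured, and Ank, which exports pyrophosphate, was 1.63-fold higher in slie/slie injured tissue (1.11 to 2.35), while 0 were lower by 1.5-fold, beside 13.8% of all genes higher and 13.0% lower. Of the Ank UMIs 30 of 41 in slie/slie and 26 of 102 in control tissue were in the 3 highest cells, and the log2 ratio was -0.60 without them. Leaving out 3 cells weighed more on the smaller slie/slie library, so that value does not settle the direction. Runx2, a transcription factor of bone and cartilage formation, had 18 UMIs in slie/slie and 82 in control injured tissue, a ratio of 0.913 (0.524 to 1.52). Bglap, the osteocalcin gene, had 0 UMIs in each of the 14 library and class sums with at least 20 cells.

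Over those 14 sums, the genes whose pattern was most like that of Spp1 were all highest in neutrophil-like cells. Neutrophil-like cells entered from both injured libraries, but macrophage-like cells only from the control injured one. Arap1, with 155 UMIs in all, stood at 77.1 CPM in slie/slie neutrophil-like and 46.9 CPM in control macrophage-like cells. By Pearson's r of log2(CPM + 10), and among 7036 genes, they were Arap1 (0.93), Hp (haptoglobin, 0.91), Slpi (a leukocyte protease inhibitor, 0.87), Jdp2 (0.86), Antxr2 (0.85), Cers6 (0.84), Glipr1 (0.84) and Fam111a (0.83). Slpi stood at 8859 CPM in slie/slie and 6194 CPM in control neutrophil-like cells, and Hp at 1247 CPM in slie/slie and 1718 CPM in control cells. The sums share libraries and depth, so these values describe likeness within these libraries and carry no test.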

How the data were processed

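The deposited values are raw UMI counts for each gene in each barcode. Per the file headers they come from Cell Ranger 5.0.1, and per the labels the build is mm10. How barcodes were called, and with which 10x chemistry, is not stated in these sources. The smallest totals among deposited barcodes were 259 UMIs (slie/slie injured), 500 (control injured), 501 (slie/slie uninjured) and 48 (control uninjured), so the limit for a barcode differed between libraries. Hemoglobin genes made up 33.3%, 15.5%, 24.3% and 38.2% of all UMIs and 5.06%, 6.09%, 1.15% and 10.1% of those in filtered cells.

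Cells passing 200 genes and a 20% mitochondrial limit were log-normalized to 10000 UMIs, reduced to 2000 variable genes (Spp1 left out) and 30 components, and clustered together with scanpy 1.11.5 and leidenalg 0.10.2 (15 neighbours, resolution 1). A cluster was named from its detected markers out of lists for 22 cell types. Differences from names given elsewhere may come from this rebuilding. The keratinocyte-like class included a cluster of 11 cells led by the lipid-synthesis genes Scd1 and Elovl3, and the erythroid-like cluster had the T-cell gene Cd3d among its leading genes. Doublets were called per library with Scrublet (2, 0, 4 and 14 calls) and kept, except in an alternative. Raw counts were summed per library and class. Levels are CPM with exact Poisson intervals, shares have exact Clopper-Pearson intervals, and ratios have exact conditional binomial intervals after adding 1 count to each sum. UMI intervals cover counting error only. Comparisons needed 20 cells in both libraries, or 10 in an addition. A gene counted as measured from 20 UMIs summed over the pair, and 1.5-fold counted as a difference. With 1 library per group no test was possible. The interval code was checked on simulated data.

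Spp1, the gene lists and the markers were chosen with earlier results of these data known. The text names Spp1, members of the lists and the 8 genes with the highest correlation with Spp1, leaving out mitochondrial, ribosomal, hemoglobin and predicted genes. The alternatives covered the filters, doublets, weights, depth, single cells, cluster resolution and the way cells were put into classes.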

Additional observations from a re-analysis of the deposited data

Results flagged for a closer look

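Spp1 had opposite signs in the 2 genotype comparisons of whole libraries, with a log2 ratio of slie/slie over control of -0.38 in injured and 1.23 in uninjured limbs. The difference between them was not tested, since each group had 1 library.

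Within the injured limbs the log2 ratio of Spp1 also had opposite signs between groups of cells, and these differences were not tested. It was 1.75 in neutrophil-like cells, 1.93 in their cluster 10, 0.47 in their cluster 1 and 1.38 in mesenchymal cluster 6. It was -0.72 in mesenchymal cluster 0, -3.11 in mesenchymal cluster 2, -0.48 in macrophage-like cells and -2.58 in pericyte-like cells.

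Barcodes outside the filter carried Spp1 at 344 CPM in the slie/slie injured library and at 16.6 CPM in the control injured library. In the slie/slie library 3 of these barcodes held 70 Spp1 UMIs of 319 in all, 60 of 385 and 14 of 263. The smallest deposited barcode had 259 UMIs in the slie/slie injured library and 500 UMIs in the control injured library. Barcodes as shallow as those 3 were thus absent from the deposited control library. The levels of 344 and 16.6 CPM therefore cannot be read as a difference between genotypes. The barcode with 70 Spp1 UMIs had 98 genes and 20 UMIs of neutrophil markers. The barcode with 14 Spp1 UMIs had 35 UMIs of Cxcl2 and 16 of neutrophil markers.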

How the results depend on the processing

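The injury ratio of Spp1 was positive in 16 of 16 alternatives in slie/slie and 15 of 15 in control tissue, the neutrophil-like genotype ratio in 15 of 15 and the macrophage-like one negative in 16 of 16. For slie/slie macrophage-like cells the alternative without the 3 highest cells left no Spp1 UMIs, so its values below were set in advance. Library ratios between genotypes and those of clusters 0, 2 and 6 and of pericyte-like cells changed sign under some alternatives. The values that moved beyond their counting interval or changed sign follow, and the cause was not tested beyond what each alternative leaves out. Clusters were matched by the largest overlap of cells. With a cluster resolution of 0.5, the genotype log2 ratio was 0.36 in cluster 2 and -1.59 in macrophage-like cells, and the macrophage-like over neutrophil-like value -2.33 in slie/slie and 1.01 in control tissue. With a cluster resolution of 2, the genotype log2 ratio was 0.057 in cluster 0, -2.23 in cluster 2, -0.66 in cluster 6 and -1.73 in cluster 1. Without the doublet calls, the genotype log2 ratio was -0.75 in whole uninjured libraries, the injury log2 ratio 3.24 in slie/slie tissue and 2.87 in control tissue. With Spp1 allowed among the clustering genes, the genotype log2 ratio was -0.84 in cluster 1 and 1.41 in cluster 10. Over all deposited barcodes, the genotype log2 ratio was -0.59 in whole injured libraries. With at least 100 genes per cell, the genotype log2 ratio was 0.23 in cluster 0, 1.71 in cluster 6, -0.10 in cluster 1 and 1.60 in cluster 10. With at least 500 genes per cell, the genotype log2 ratio was -0.49 in whole injured libraries, 0.37 in cluster 0, -2.25 in cluster 2, 0.63 in cluster 6, -1.61 in cluster 1 and 1.61 in cluster 10, and the macrophage-like over neutrophil-like value 1.43 in control tissue. With at most 10% mitochondrial UMIs, the genotype log2 ratio was 0.040 in cluster 0, 0.34 in cluster 2, -0.44 in cluster 6, -0.84 in cluster 1 and 1.41 in cluster 10. With cells classed by their own marker UMIs, the genotype log2 ratio was 1.44 in neutrophil-like cells, -3.44 in macrophage-like cells and 3.25 in pericyte-like cells, and the macrophage-like over neutrophil-like value -3.26 in slie/slie and 1.61 in control tissue. With cells thinned to 500 UMIs, the genotype log2 ratio was 0.94 in whole injured libraries, 2.03 in neutrophil-like cells, 0.93 in keratinocyte-like cells, 0.25 in cluster 0, -1.09 in cluster 2, -0.87 in cluster 6, 2.24 in cluster 10, 2.69 in pericyte-like cells and -0.21 in whole uninjured libraries, the injury log2 ratio 3.79 in slie/slie tissue, 2.63 in control tissue and -2.08 in control pericyte-like cells, and the macrophage-like over neutrophil-like value -2.11 in slie/slie and 0.36 in control tissue. With cells weighted equally, the genotype log2 ratio was 0.92 in whole injured libraries, 2.13 in neutrophil-like cells, 0.15 in cluster 0, -0.93 in cluster 2, -0.013 in cluster 6, 2.36 in cluster 10, -0.79 in macrophage-like cells, 0.22 in pericyte-like cells and -0.42 in whole uninjured libraries, the injury log2 ratio 3.79 in slie/slie tissue and 2.45 in control tissue, and the macrophage-like over neutrophil-like value -2.77 in slie/slie and 0.15 in control tissue. Clustered without the control uninjured library, the genotype log2 ratio was 0.40 in cluster 2 and -0.44 in cluster 6. Without cells under 0.5% mitochondrial UMIs, the genotype log2 ratio was -1.14 in whole injured libraries, -1.88 in cluster 0, 1.80 in cluster 6 and -5.41 in pericyte-like cells, the injury log2 ratio 1.24 in slie/slie tissue, and the macrophage-like over neutrophil-like value 1.64 in control tissue. Without the 1 highest Spp1 cell per library and class, an alternative added after seeing the data, the genotype log2 ratio was -0.64 in whole injured libraries, -0.35 in cluster 6, 2.35 in cluster 10 and -2.94 in macrophage-like cells, the injury log2 ratio 3.32 in slie/slie tissue and 5.34 in control tissue, and the macrophage-like over neutrophil-like value -3.83 in slie/slie and 0.99 in control tissue. Without the 3 highest Spp1 cells per library and class, the genotype log2 ratio was -0.12 in whole injured libraries, 2.14 in neutrophil-like cells, -1.94 in cluster 2, -0.83 in cluster 6, 1.17 in cluster 1, 2.74 in cluster 10, -4.66 in macrophage-like cells and 2.06 in whole uninjured libraries, the injury log2 ratio 4.39 in slie/slie tissue and 6.57 in control tissue, and the macrophage-like over neutrophil-like value -6.32 in slie/slie and 0.48 in control tissue. Without the 3 deepest cells per library and class, the genotype log2 ratio was 0.033 in whole injured libraries, 0.095 in keratinocyte-like cells, -2.37 in cluster 2, -0.70 in cluster 6, 1.71 in cluster 10, -4.78 in macrophage-like cells, 1.65 in pericyte-like cells and -0.12 in whole uninjured libraries, the injury log2 ratio 4.46 in slie/slie tissue and 4.31 in control tissue, and the macrophage-like over neutrophil-like value -5.73 in slie/slie and 0.72 in control tissue. The median log2 ratio of the osteopontin receptors in neutrophil-like cells was 0.14 rather than -1.21 with at least 50 UMIs per gene, which left fewer genes. Without cells under 0.5% mitochondrial UMIs too few slie/slie neutrophil-like cells remained to give a ratio. Without the 1 doublet call with the most Spp1 UMIs, also added after seeing the data, the genotype log2 ratio was -0.12 in whole uninjured libraries and the injury log2 ratio 3.26 in slie/slie tissue. Without the 3 cells of each library with the most UMIs of the gene, added likewise, the Ank log2 ratio was -0.60 rather than 0.70 in whole injured libraries. Leaving out 3 cells takes a larger share of the slie/slie injured library, with 246 cells, than of the control injured library, with 751. Of 506 recomputed values, 319 stayed within their interval, 156 moved beyond it and 31 changed sign after being called. Of the 8 genes most like Spp1, 5 remained with a pseudocount of 1 and 5 with rank correlation. Small cell numbers limit every class, most of all slie/slie macrophage-like cells (14) and the control uninjured library (60 cells). No paired analysis was possible because each group had 1 library of pooled mice.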
